A study of Homo sapiens with 2 samples.

Results

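The 10 genes described here are E2F1 to E2F8, which encode the E2F family of transcription factors, and RB1 and RBL1, which encode the pocket proteins pRB and p107. They were profiled in HepG2 cells treated with hawk tea extract (HTE), and the members were taken by name, as every array probe whose RefSeq transcript belongs to one of these genes. This gave 15 probes for 10 genes, and 14 probes, covering all 10 genes, stood well above background on 1 or both arrays, among 23752 genes and unnamed transcripts that passed the same filter. HepG2 is an established human hepatoma line, and HTE is an ethanol extract of the leaves of a non-Camellia tea plant, dissolved in dimethyl sulfoxide (DMSO). The 2 samples were a DMSO-treated culture, the control, and an HTE-treated culture, both harvested at 24 h and each hybridised to 1 one-colour Agilent array. The labels give 200 μg mL−1 as the dose of HTE, whereas the HTE array itself is named with 300. The results text of the study gives the higher of these doses for the arrays, so that the labels and that text differ. With 1 array per condition there is no test, no p value and no estimate of the spread between cultures, and treatment, culture and array cannot be told apart.

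Of the spots that are not controls, 60.6% (DMSO) and 56.6% (HTE) stood well above background, with no spot saturated. All 10 hepatocyte markers examined, among them ALB, AFP and APOA1, were well above background on both arrays, with log2 ratios of HTE over DMSO from -0.36 to 0.32. Of the 12 markers of other cell types, 7 stood well above background on 1 or both arrays, and CD3E, DCN, LUM, CDH5 and KDR were not on either. CD14 and PECAM1 had log2 ratios of -1.77 and -1.82, COL1A1 and VWF were both at -0.63 and CD68 was at 0.46. PTPRC was at 0.14 with its brightest probe and at -0.88 with a dimmer one, also well above background on both arrays. These markers thus lay on both sides of 0. The bound for COL3A1, which was dim on the HTE array, allows no change. The part of these markers in the results was not tested.

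E2F proteins bind the promoters of genes needed for DNA synthesis, most of them as dimers with a DP protein. E2F1, E2F2 and E2F3 are known mainly as activators, E2F4 and E2F5 act mostly as repressors together with pocket proteins, E2F6 represses without binding pocket proteins, and E2F7 and E2F8 are atypical repressors that bind DNA without a DP partner. The pocket proteins pRB, p107 and p130 hold E2F in check, and phosphorylation by cyclin-dependent kinases in G1 releases it. Several genes of the family are E2F targets themselves, which makes their promoters of interest here.

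Promoter windows of 300 bases (250 before to 50 after the start of the transcript, RefSeq, GRCh38.p14) were available for 8 of the 10 members. They were searched on both strands for the core of the E2F site in 4 spellings, which share their outer bases and differ in the pair of C or G bases between them. With both middle bases alike they are TTGGCGC or, in the other form, TTCCCGC. With different middle bases, the order C before G reads TTCGCGC in full. The reverse order of these middle bases reads TTGCCGC in full. In the windows of the members, no match overlapped one of the other motifs named below. At least 1 match was found in a window of 6 of the 8 members, against 23.4% of the 12092 genes with a window that passed the filter on the arrays, and 2 or more in a window of 4 of the 8, against 3.64%. Counted over single windows of this length, 13.0% of all 35116 held a match and 1.77% held 2 or more. The windows around the matches upstream of the start are shown because E2F proteins could bind such letters, which was not tested here. The matches are in capitals and each sequence is read along the gene's own strand.
E2F1, chr20:33686393-33686422, minus strand: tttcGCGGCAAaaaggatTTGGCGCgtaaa
RBL1, chr20:37095999-37096028, minus strand: cagattTTCGCGCgctTTGGCGCaggtggt
E2F7, chr12:77065727-77065756, minus strand: agggggccgagGCGGCAAcaattgggcggg
E2F7, chr12:77065684-77065713, minus strand: cgcggctcggaGCGCCAAgactccgagggg
E2F2, chr1:23531256-23531285, minus strand: cggcacgacgtTTGGCGCtaaaaaaaaaaa
E2F3, chr6:20401815-20401844, plus strand: ttgaaaagccgGCGGGAAatccgagtttcg
E2F3, chr6:20401844-20401873, plus strand: gcgggaggaccTTGGCGCgtaaaccgtatc
E2F1 and RBL1 each carried a pair of matches within 1 window of 30 bases, the first of them beginning 33 bases (E2F1) and 25 bases (RBL1) before the start site. The matches of E2F7 lay farther out, beginning 176 and 133 bases before the start, and the single match of E2F2 began 41 bases before it. E2F3 had 2 matches in the window of one of its starts and 0 in that of the other, and E2F6 had 1 match, 14 bases after the start. The windows of RB1 and E2F4 held 0 matches to these letters.

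The family divided into 4 genes that were at least 2-fold lower in HTE-treated cells and 6 that were not. E2F8, RBL1, E2F1 and E2F7 had log2 ratios between -2.01 and -1.37, E2F2 was intermediate at -0.74, and E2F3, E2F4, RB1, E2F6 and E2F5 lay between -0.26 and 0.20. Of the 10 genes, 9 had a ratio under 0, against 49.0% of all genes, and 4 were at least 2-fold lower, against 3.03%. None of the 10 was at least 2-fold higher, against 5.25% of all genes. The median log2 ratio was -0.50 for the members and 0 for all genes. Among all 23752 genes, E2F8 had the 41st lowest ratio, RBL1 the 70th, E2F1 the 127th and E2F7 the 221st. The ratios compare log2 signals from which the 75th percentile of each array was subtracted, and ± below is the error that the scanner software estimates for each spot, carried over to the log2 ratio, which leaves out any difference between cultures. The arrays measure RNA of the whole culture, so a smaller number of cells that express a gene and less RNA per cell cannot be told apart. The study reports a slight loss of viability of these cells at the dose its results text gives for the arrays. The part of this loss in the ratios was not tested.

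**Figure D1:**
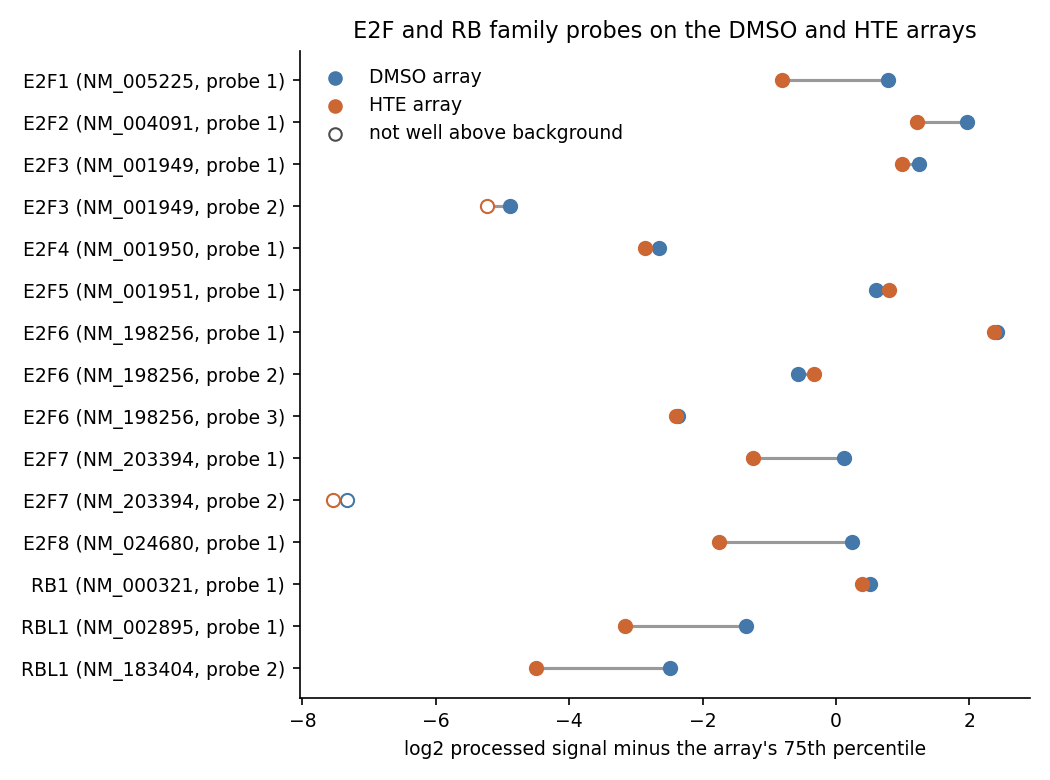
Log2 processed signal, relative to the 75th percentile of the array, of the 15 probes of the E2F and RB family genes, with 1 point for the DMSO array and 1 for the HTE array joined by a line. The probes of E2F1, E2F7 (probe 1), E2F8 and RBL1 lay clearly lower on the HTE array, open points were not well above background, and positions of different probes are not comparable with one another.

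Among the activators, E2F1 was measured best, with 10 replicate spots of 1 probe. On the DMSO array its spots ranged from 6646 to 7149 in processed signal, with a median of 6869, and on the HTE array from 1962 to 2125, with a median of 2020.2, after 1 outlier spot was left out there. The spots of both arrays did not overlap, and the scaled log2 ratio was -1.59, which leaves 33.3% of the DMSO level. Over the 9 usable pairs of spots the ratio had an SD of 0.059 and was at its lowest -1.67, a technical spread within these 2 arrays. E2F2, which had 1 spot, gave a signal of 15647 with DMSO and 8322.5 with HTE, a log2 ratio of -0.74 ± 0.20. E2F3 changed less, from 9551 to 7077, a log2 ratio of -0.26 ± 0.20. A second, much dimmer probe of E2F3 was well above background with DMSO alone (136 against 95.0), which gives a log2 ratio of -0.35 ± 0.40, less than its error. The activators all had ratios under 0, E2F1 the lowest, and the difference between them was not tested.

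E2F4 and E2F5, the repressors that work with pocket proteins, were close to the DMSO level. The signal of E2F4 was 637 with DMSO and 491 with HTE, a log2 ratio of -0.21 ± 0.21. That of E2F5 was 6085 with DMSO and 6193 with HTE, a log2 ratio of 0.20 ± 0.20, the single ratio above 0 among the 10 genes, which turned to -1.01 with scaling to the spike-in RNA. Both ratios were about as large as their own software error.

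E2F6, which represses as part of a Polycomb complex, had 3 probes. Its brightest probe gave 21361 with DMSO and 18406 with HTE, a log2 ratio of -0.044 ± 0.20, and the dimmest -0.034 ± 0.21. The third gave 2718 and 2842, a log2 ratio of 0.24 ± 0.20. The 3 probes spanned 0.28 on the log2 scale and lay on both sides of 0, and their mean of 0.053 has the opposite sign to the brightest probe, so E2F6 has no settled direction on these arrays.

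The atypical repressors E2F7 and E2F8 were both well below the DMSO level. E2F8 gave 4776 with DMSO and 1055 with HTE, a log2 ratio of -2.01 ± 0.21 or 4.02-fold lower, the largest difference among the 10 genes at their brightest probes. E2F7 gave 4391 with DMSO and 1506 with HTE, a log2 ratio of -1.37 ± 0.20 or 2.59-fold lower. The other probe of E2F7 did not rise well above background with DMSO (24.96) or HTE (19.1), so E2F7 rests on 1 probe and E2F8 on 1 spot.

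RBL1 and RB1 had very different ratios, a difference that could not be tested. RBL1 had 2 probes, one for each of 2 transcripts, and both were far lower with HTE. The brighter gave 1583 with DMSO and 399 with HTE, a log2 ratio of -1.82 ± 0.22, and the dimmer 717 and 158, a log2 ratio of -2.01 ± 0.27. These are signals 3.52-fold and 4.02-fold lower, and the probes differed by 0.19. RB1, with 10 spots of 1 probe, ranged from 5538 to 5873 on the DMSO array (median 5725) and from 4463 to 4880 on the HTE array (median 4720), with 1 outlier spot left out on each. Its unscaled signals therefore did not overlap either, but after scaling the log2 ratio was -0.11 with an SD of 0.046 over 9 pairs of spots, from -0.18 to -0.011. RB1 was thus at 92.7% of its DMSO level, RBL1 at 28.4%. RBL2, which encodes the third pocket protein p130 and was not among the 10 members, was at 6936 with DMSO and 5319 with HTE, a log2 ratio of -0.21.

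**Figure D2:**
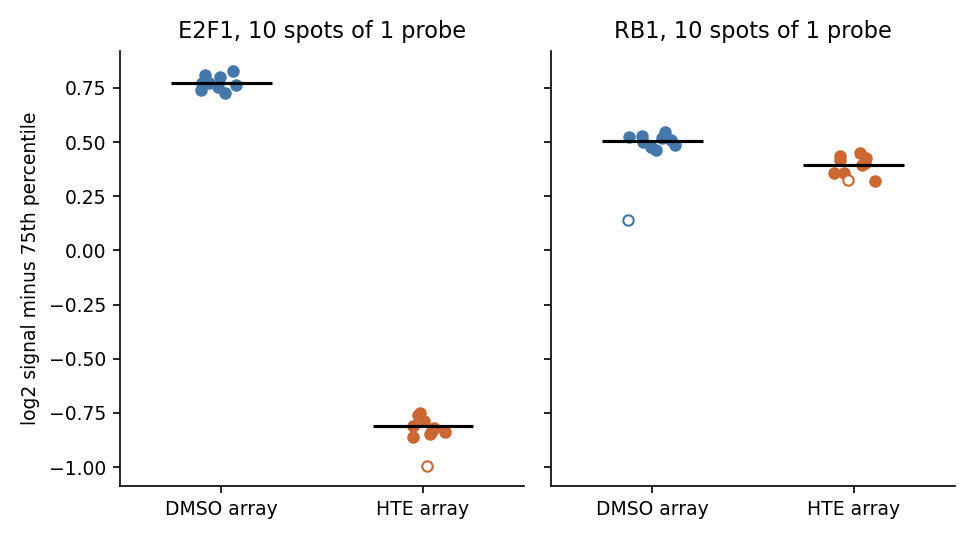
Log2 processed signal minus the 75th percentile of the array for the 10 replicate spots of the E2F1 probe and of the RB1 probe on the DMSO and HTE arrays, with the mean of the usable spots as a bar and outlier spots open. The log2 ratio was -1.59 for E2F1 and -0.11 for RB1, with SDs of 0.059 and 0.046 over pairs of spots.

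**Figure D3:**
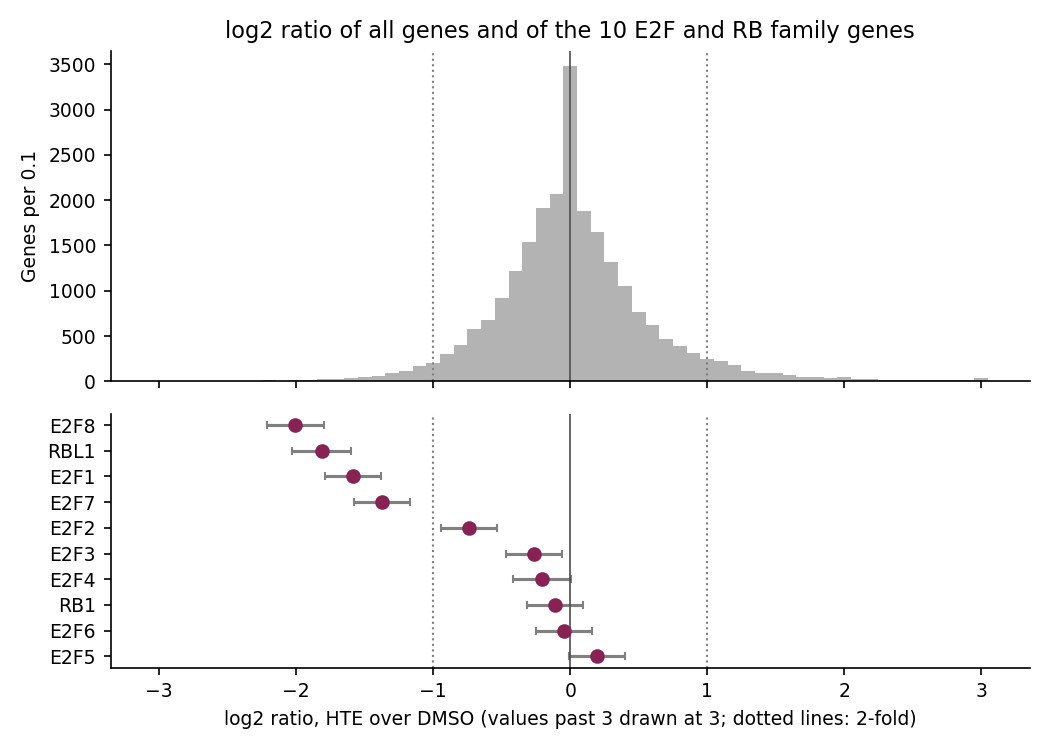
The upper panel counts all 23752 genes by their log2 ratio of HTE over DMSO in bins of 0.1, including 1272 genes whose bound allows no change and which are drawn at 0. The lower panel gives the 10 members in order, with bars for the software error of the ratio, and shows 4 of them beyond the 2-fold line on the lower side.

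Set against the promoter matches, the 3 genes at least 2-fold lower that had a window (E2F1, E2F7 and RBL1) each had 2 matches, and of the 5 others with a window 3 had a match and 1 had 2 or more. Over all genes with a promoter window, 5.68% of 440 genes with 2 or more matches were at least 2-fold lower, against 2.51% of 2395 genes with 1 match and 2.42% of 9257 genes with 0 matches. Their median log2 ratios were -0.095, -0.016 and 0.0062. E2F2 and E2F6 were among the genes with 1 match, whose share was close to that of genes with 0. Other short motifs often found in cell cycle promoters showed shares of the same order for genes at least 2-fold lower, but not for genes at least 2-fold higher. Genes with 2 or more matches to the CHR element (TTTGAA) were at least 2-fold lower in 5.67% of 194 cases, against 4.64% of 1509 with 1 match and 2.19% of 10389 with 0. For the CCAAT box the shares were 4.62% of 1928, 2.39% of 3225 and 2.06% of 6939, in the same order. At least 2-fold higher were 2.05% of genes with 2 or more E2F matches, 3.26% with 1 and 5.34% with 0. With 2 or more CHR matches 5.67% were at least 2-fold higher, against 4.78% with 0. For the CCAAT box these shares were 4.36% and 4.93%. Of the members, E2F3 and E2F7 had 4 CCAAT matches each and E2F1 had 3. These counts describe letters in the windows and say nothing of what binds there.

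The genes that act with E2F and the pocket proteins were taken as lists. All 3 DP partner genes were lower with HTE, against 49.0% of all genes. TFDP1, the principal partner in many cell types, had a log2 ratio of -0.79 at its brighter probe (21132 with DMSO and 10842 with HTE) and -0.67 at the other, and TFDP2 had -0.28. TFDP3 was at -1.04, but it is a retrocopy of TFDP1, and whether TFDP1 RNA hybridised to its dim probe (372 and 161) was not tested.

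Of the 9 genes of G1 cyclins, their kinases and the phosphatase CDC25A, 7 were lower, against 49.0% of all genes. At least 2-fold lower were 3 of the 9, against 3.03% of all genes, and the median log2 ratio was -0.86. CCND1, the D-type cyclin that starts phosphorylation of pRB, went from 12154 to 4892 (-1.14). The cyclin E gene CCNE2 was at -1.05 and CDC25A, which activates CDK2, at -1.02. In contrast CCND2 was higher (0.53), and the D-cyclin kinase gene CDK4 stayed near its DMSO level (0.11).

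The 7 CDK inhibitor genes had a median log2 ratio of 0.0024, which took the opposite sign without scaling, with scaling to the median or spike-in RNA, with normexp background correction and with a filter on both arrays. Of the 6 that were well above background on both arrays, 0 were past 2-fold. With that filter, 2.96% of all genes were at least 2-fold lower and 4.29% at least 2-fold higher. The lowest was CDKN2C (-0.87), which encodes the inhibitor p18. CDKN2B, the gene of p15, was well above background with HTE alone and at least 1.85-fold higher there, a bound that does not settle whether it passed 2-fold. CDKN1A, the gene of p21, went from 927 to 1459, a log2 ratio of 0.83.

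The MuvB core together with p107 or p130 and E2F4 forms the DREAM repressor, and with B-Myb it activates late cell cycle genes. Of 8 genes of these complexes 6 were lower, against 49.0% of all genes, with a median of -0.67. At least 2-fold lower was 1 of the 8, against 3.03% of all genes. That was MYBL1, which encodes A-Myb, at -1.04 with one probe and -1.37 with the other. LIN37 had the highest ratio (0.22), and the 4 probes of RBBP4 ranged from -0.44 to 0.27, on both sides of 0. DYRK1A was counted as higher by its brightest probe (0.046), but a dimmer probe, well above background on both arrays, was at -0.96.

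The genes of PRC1.6, the Polycomb complex in which E2F6 works, lay near the DMSO level. The 10 genes had a median log2 ratio of -0.085, with 6 lower, against 49.0% of all genes, and 4 higher. They ran from MGA (-0.46) to RNF2, at 0.50 with its brighter probe and 0.030 with the other. Of the 10, 0 were past 2-fold, against 3.03% of all genes lower and 5.25% higher.

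Of 5 genes in the turnover of E2F proteins, 4 were lower, against 49.0% of all genes, with a median of -0.83. At least 2-fold lower were 2 of the 5, against 3.03% of all genes. CCNA2, whose cyclin A with CDK2 switches off E2F1, went from 21298 to 5718 (-1.73), and the ubiquitin ligase gene SKP2 from 1373 to 479 (-1.35). FZR1, an activator of the anaphase-promoting complex, was higher (0.47).

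The list of 20 G1/S genes that are textbook targets of E2F was lower throughout, with ratios from -2.14 to -0.32 and a median of -0.86. All 20 had a ratio under 0, against 49.0% of all genes, and 8 of them were at least 2-fold lower, against 3.03%. RRM2, a subunit of ribonucleotide reductase, was the lowest (909 with DMSO and 183 with HTE, -2.14), followed by CDC6, a loading factor of replication origins, at -1.77. The helicase subunit gene MCM5 was at -1.31, ORC1, of the origin recognition complex, at -1.18, the checkpoint kinase gene CHEK1 at -1.18 and UHRF1, which helps to maintain DNA methylation, at -1.09. GMNN, the gene of the licensing inhibitor geminin, was nearest to the DMSO level (-0.32). A fall of cell cycle genes is a result of the same 2 arrays known when this list was chosen, so the list is not independent of it.

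**Figure D4:**
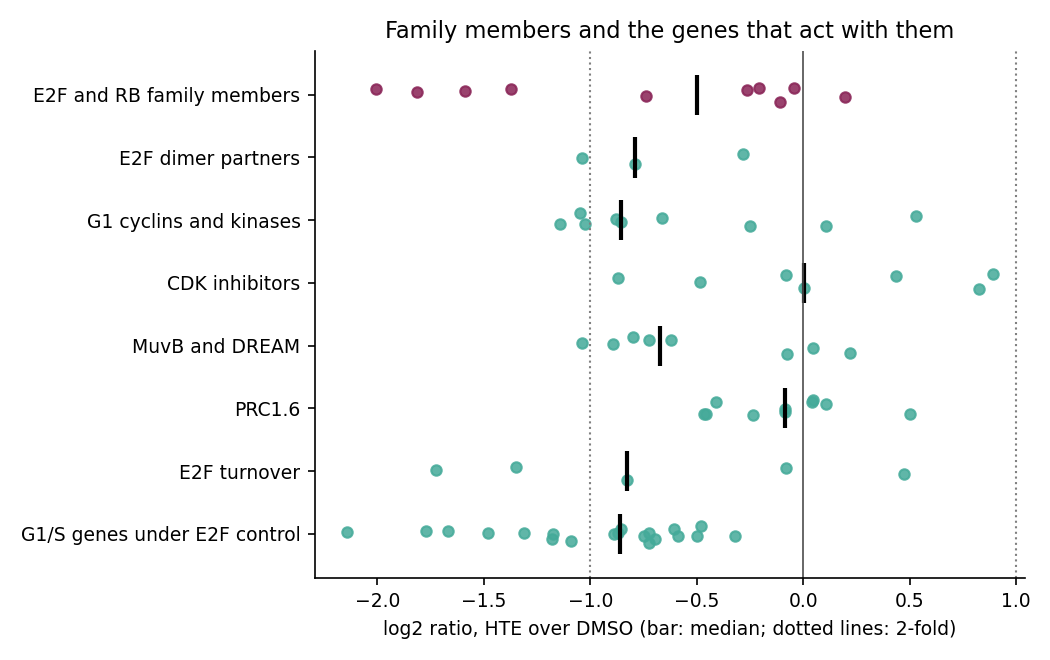
Log2 ratios of HTE over DMSO for the 10 members and for 7 lists of genes that act with them, with 1 point per gene, the median as a bar and 2-fold as dotted lines. All 20 G1/S genes lay below 0, while the CDK inhibitors and the PRC1.6 genes lay on both sides of it.

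The size of every ratio depends on how the arrays were scaled. Over 10 of 11 alternatives, E2F8, RBL1, E2F1 and E2F7 remained at least 2-fold lower, and the other 6 genes remained short of 2-fold. E2F8 lay between -2.18 and -1.96, RBL1 between -2.01 and -1.59, E2F1 between -1.76 and -1.55 and E2F7 between -1.54 and -1.30. The exception was scaling to the E1A spike-in RNA, whose 8 probes were brighter on the HTE array by 0.45 to 1.57 on the unscaled log2 scale. It lowered the median of all genes by 1.20, placed 67.2% of all genes at least 2-fold lower and did the same to all 10 members, from E2F8 (-3.22) to E2F5 (-1.01). It moved the ratios of all 10 members by the same amount, so that their order and the gaps between them were as before.

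**Figure D5:**
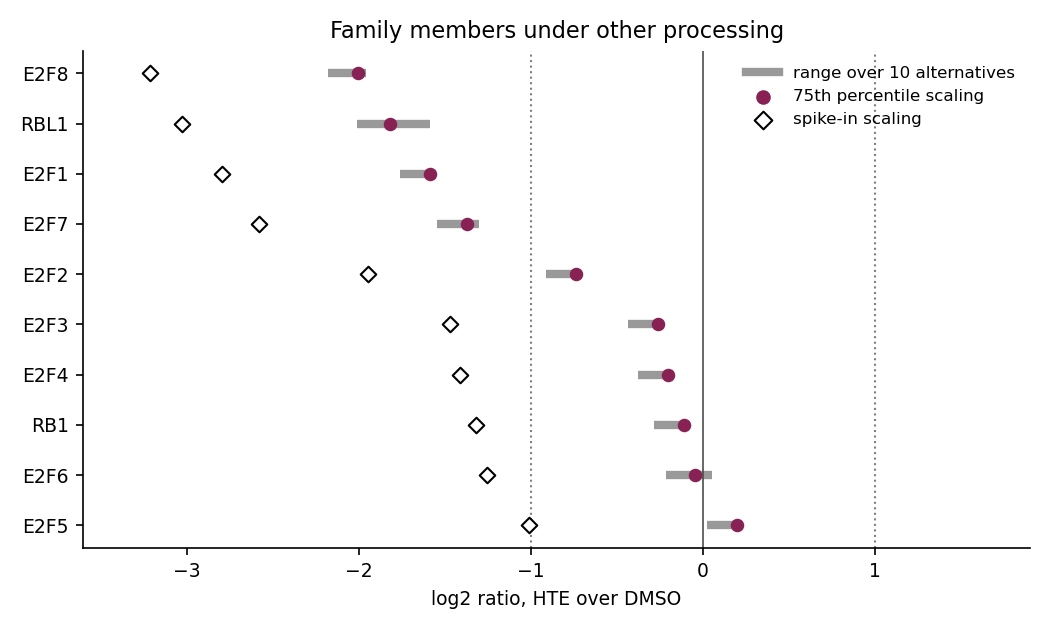
Log2 ratio of each member at the 75th percentile scaling (filled points), its range over 10 alternatives (grey bars) and its value with spike-in scaling (open diamonds). The grey bars of E2F8, RBL1, E2F1 and E2F7 lie beyond 2-fold on the lower side, and spike-in scaling shifts all 10 genes down together.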

How the data were processed

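Values came from Agilent Feature Extraction files of 1 DMSO and 1 HTE array (version 11.5.1.1 in the file headers, 10.7 in the submitters' processing notes). The deposited intensity values, processed signals, had been background-subtracted and detrended by the authors' software and were not scaled between arrays. Flags for background, saturation and outliers came from the same software. Here control spots were left out, log2 was taken, and the 75th percentile of each array was subtracted (signals of 4020.0 and 3570.3). Outlier spots counted towards this percentile and were left out after it. Spots of a probe were averaged, probes were kept with at least 0.5 of their spots well above background on 1 array, and a probe dim on the other array gave a bound. RefSeq accessions named 28174 of 50599 probes (GRCh38.p14 table, used for names, since the headers name another build), and the brightest probe stood for a gene. The number of arrays limits the precision. Log2 ratios had a median SD of 0.051 over replicate spots (688 probes) and 0.16 between probes of a gene (3759 genes), and the latter was the margin for calling a value moved. A 2-fold change was counted as changed, following the study's methods. All 10 members were named with every probe, and of each list the largest rise, the largest fall and the genes past 2-fold, some of which are not reported here. Members and lists were chosen with earlier results of these data known. The steps were tested on simulated data. Alternatives were normexp (offset 50, on median signals), quantile, median, spike-in and no scaling, other filters and bounds, and other choices of probe. Software was Python 3.11.15 (pandas 2.3.3, numpy 2.4.6, matplotlib 3.10.9) and R 4.3.3 (limma 3.58.1).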

Additional observations from a re-analysis of the deposited data

How the results depend on the processing

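No paired analysis was possible because each condition had a single array. The counts of 9 lower members and of 0 members at least 2-fold higher stayed within 1.5 times or at 0 under all 11 alternatives, and the count of 4 members at least 2-fold lower did so except with spike-in scaling, which gave 10. The mean over probes turned E2F6 to 0.053, and spike-in scaling turned E2F5 to -1.01. RBL1 moved past the margin to -1.59 with normexp and to -2.01 with its dimmest kept probe.

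Without scaling, which lowers each measured ratio by the same amount, the median of the members was -0.67, and the list medians were -0.96 for DP partners, -1.03 for G1 cyclins and kinases, -0.17 for CDK inhibitors, -0.84 for MuvB and DREAM genes, -0.26 for PRC1.6, -0.998 for E2F turnover and -1.03 for G1/S genes. With spike-in scaling they were -1.71 for the members and, in the same order, -2.00, -2.07, -1.21, -1.88, -1.29, -2.04 and -2.07. The median of the CDK inhibitors was -0.041 with normexp background correction, -0.078 with scaling to the median and -0.040 with a filter on both arrays, and normexp gave -0.64 for E2F turnover, and the cause was not tested. All other list medians kept their sign and moved by less than 0.16.

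Over all genes, 720 were at least 2-fold lower and 1248 higher, against 1209 and 883 without scaling, 15957 and 144 with spike-in scaling, 468 and 825 with normexp and 1320 and 1341 with the own value of dim probes. Without a filter 1270 were lower and 2297 higher, but of 41127 genes rather than 23752, so that the shares of 3.09% and 5.59% were near the 3.03% and 5.25% with it. Signal over background limits E2F4, both probes of RBL1, the dimmer probes of E2F3 and E2F7, and TFDP3. It also limits listed genes that were dim with HTE, among them RRM2 (183), CDC6 (212) and SKP2 (479).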
